A study of Mus musculus with 12 samples.

Results

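The comparison described here is MGT against LacZ in cardiac fibroblasts of 3-month mice, the resident matrix-producing cells of the heart, grown as primary cells from wild-type hearts. MGT stands for the heart transcription factors Mef2c, Gata4 and Tbx5 given together, and LacZ for a control vector; RNA was collected on day 3. The comparison takes 4 of the 12 libraries of the series, 2 with MGT and 2 with LacZ, and all 16383 genes of the deposited table. The other 8 libraries, used here beside these, are MGT and LacZ cells of neonatal mice (postnatal days 1 to 3) and of mice of 18 months, all wild type and also collected on day 3. The study asked what holds back reprogramming of fibroblasts from older hearts. The labels do not say whether 2 libraries of a group are separate animals or cultures. The p-values reflect only how far libraries of a group vary, with the spread pooled over all 6 groups. Each age is its own cell preparation, and age and preparation cannot be told apart.

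The 4 libraries held 12553883 to 15200619 counts over the listed genes and detected 13485 to 13716 of them. Along the first principal component, with 82.4% of the variance, the MGT libraries lay at -32.69 and -32.32 and the LacZ libraries at 30.34 and 34.67. The second, with 11.9%, set LacZ replicate 1 (17.96) apart from LacZ replicate 2 (-16.79). The counts of these LacZ replicates scattered beyond counting error more than those of any other group. The chi-square per degree of freedom was 21.2, against 2.28 to 7.41 in the other groups. Since the p-values use a pooled spread, they may overstate certainty for this comparison. These LacZ replicates also differed in step with exon length. Among 9341 genes of at least 5 CPM (counts scaled to the library total) the median log2 ratio of LacZ replicate 1 to replicate 2 was -0.20 in the fifth with the shortest exons and 0.24 in the fifth with the longest. The same medians were -0.04 and 0.03 between the MGT replicates, and -0.10 and 0.08 for MGT over LacZ. The part of this difference in the results was not tested. Each gene list's count of calls that moves by over 1.5 times without a library is given with that value or said to move. Each gene's change that 1 library moves as far is given with that value. A fit with exon-length correction, a setting chosen after seeing the data, called 2690 genes, 2280 of them shared with the 2435 below. The delivered factors were higher in both MGT libraries, with Tbx5 at 289 and 279 CPM with MGT, against 1.21 and 0.789 CPM with LacZ, Mef2c at 214 and 201 CPM with MGT, against 10.1 and 8.9 CPM with LacZ and Gata4 at 239 and 236 CPM with MGT, against 123 and 116 CPM with LacZ, a count that pools vector and native transcripts (log2 changes 8.16 ± 0.19, 4.45 ± 0.14 and 0.99 ± 0.09). The 15 markers of cardiac fibroblasts summed to 18243 and 19127 CPM with MGT, against 21652 and 21067 CPM with LacZ, with 2 of the 15 called higher and 7 lower.

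**Figure D1:**
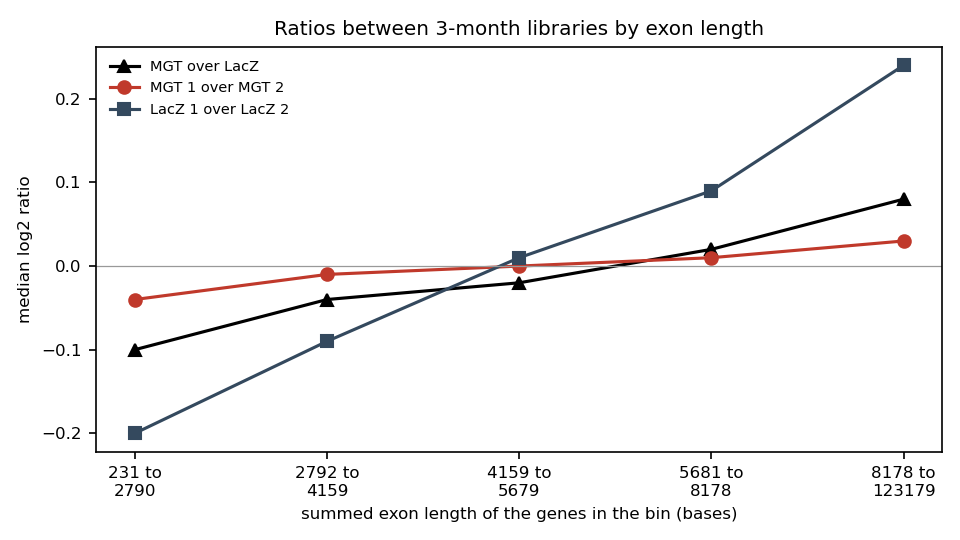
Median log2 ratio (vertical) of MGT over LacZ means, of the 2 MGT replicates and of the 2 LacZ replicates, in 5 bins of genes by summed exon length in bases (horizontal). The LacZ replicate ratio climbs over the bins, to 0.24 in the longest, while that of the MGT replicates stays between -0.04 and 0.03.

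Fibroblasts of the heart build and remodel the matrix between muscle cells, and they talk to their neighbours through secreted proteins of the TGF-beta, Wnt, fibroblast growth factor and cytokine families and through lipid mediators such as prostaglandins. Mef2c, Gata4 and Tbx5 bind DNA and switch on genes of developing heart muscle. Added to fibroblasts, they start a slow and partial change toward a muscle-like state, of which a few days show only the beginning.

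A gene was called when edgeR's quasi-likelihood test gave a Benjamini-Hochberg adjusted p below 0.05 over the 11940 genes that passed a filter on low counts. With MGT, 2435 genes were called in 3-month cells, 20.4% of those tested: 1319 higher (11%) and 1116 lower (9.35%). Of these, 510 (4.27%) were at least 2-fold higher and 209 (1.75%) at least 2-fold lower, and the median log2 change of all tested genes was -0.006. In neonatal cells 1103 genes (9.24%) were called, 623 (5.22%) higher and 480 (4.02%) lower. In 18-month cells 2252 (18.9%) were called, 1267 (10.6%) higher and 985 (8.25%) lower. The response itself differed between 3-month and neonatal cells for 536 genes (4.49%), with 337 (2.82%) more positive and 199 (1.67%) more negative at 3 months. It differed between 18-month and 3-month cells for 284 genes (2.38%), with 201 (1.68%) more positive and 83 (0.695%) more negative at 18 months. Without MGT replicate 1 the count for 3-month cells was 1471, without MGT replicate 2 it was 1593, without LacZ replicate 1 it was 3579, and a fit on these 4 libraries alone called 1550. Against this background, lists of genes with a shared role are described by how many of their tested members were called, and those shares can be read beside the 11% and 9.35% of all genes. Where members of a list are called listed, only those found in the deposited table are meant, and some chosen genes were not in it.

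**Figure D2:**
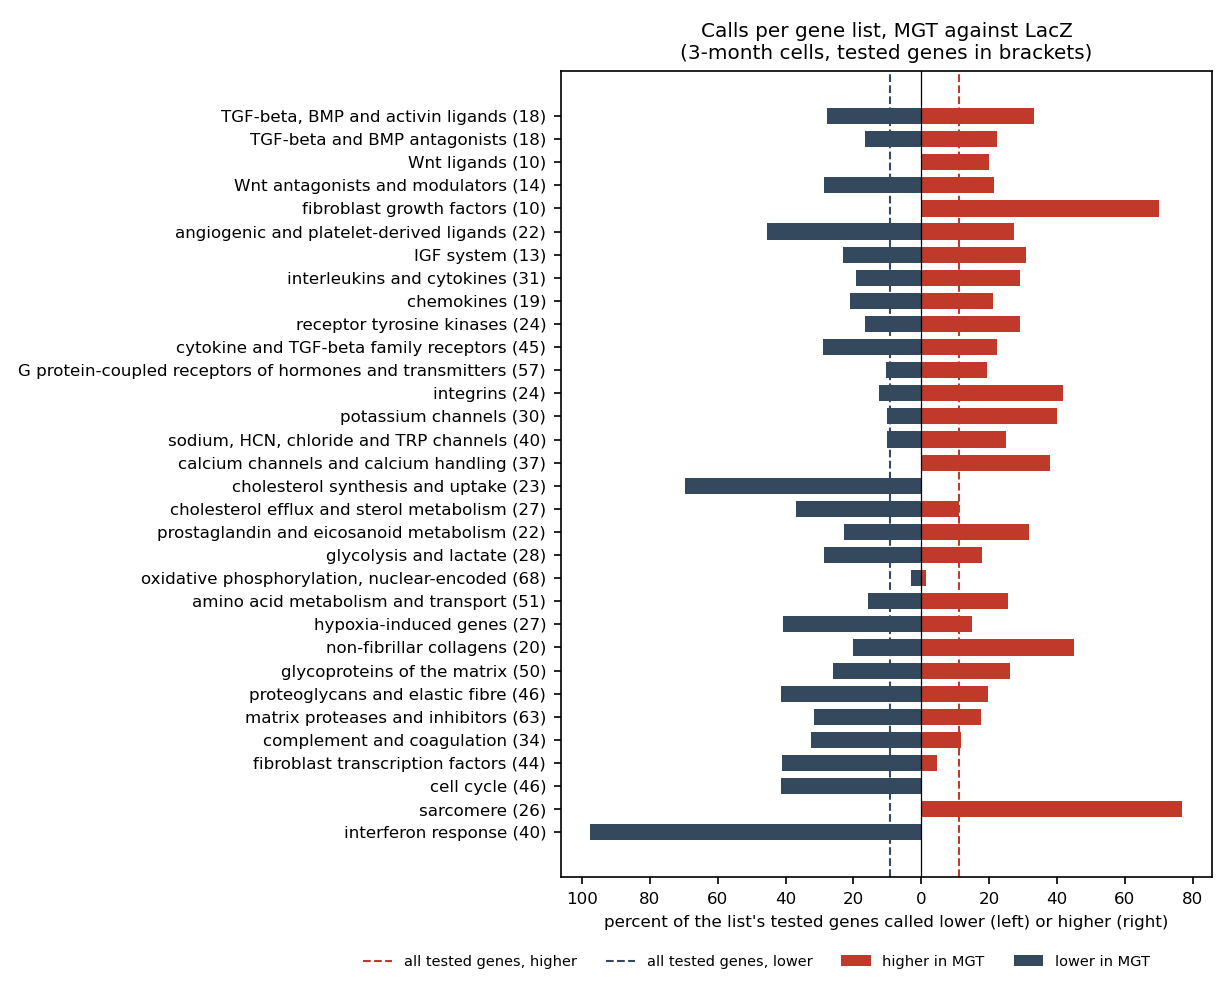
Percent of each gene list's tested genes called lower (left, dark blue) or higher (right, red) in MGT than in LacZ cells of 3 months, with the number tested in brackets and dashed lines at the shares of all tested genes (11% higher, 9.35% lower). Cholesterol synthesis has 16 of 23 genes lower and none higher, and fibroblast growth factors have 7 of 10 higher and none lower.

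Secreted signals of the TGF-beta and BMP family, which set matrix production and cell fate, moved in both directions. Of 30 listed ligands 18 passed the filter; 6 rose and 5 fell, with a median log2 change of -0.01. Bmp3, a BMP family member that opposes other BMPs in bone, measured 24.9 and 22.9 CPM with MGT, against 0.128 and 0.62 CPM with LacZ. The groups lay far apart, and the log2 change was 5.92 ± 0.36 (SE; adjusted p = 3.8e-10, edgeR), or 5.24 without LacZ replicate 1 and 7.47 without LacZ replicate 2. Its change was smaller in neonatal cells, at 2.59, and the difference between the ages passed the test (adjusted p = 0.0021). Tgfb2, a ligand of the developing valves and epicardium, measured 90.8 and 90.1 CPM with MGT, against 20.4 and 17.9 CPM with LacZ (log2 change 2.24 ± 0.13). Tgfb3, its close relative, rose by 1.31 ± 0.10 and Bmp2 by 2.54, at 3.18 without LacZ replicate 1 and 2.05, no longer called, without LacZ replicate 2. On the other side stood the activin subunit Inhbb, with 67.4 and 73.6 CPM with MGT, against 147 and 151 CPM with LacZ, a change of -1.08 ± 0.10. Bmp6 fell by 1.00 and Gdf6 by 0.89 on the log2 scale. Gdf10 fell by 2.46 at a low level, with 0.558 and 0.346 CPM with MGT, against 1.98 and 3.1 CPM with LacZ. Secreted antagonists of the family rose as well: follistatin (Fst), which binds activins, measured 115 and 124 CPM with MGT, against 38.1 and 38.3 CPM with LacZ (log2 change 1.65 ± 0.10), and noggin (Nog), which binds BMPs, 5.02 and 6.79 CPM with MGT, against 0.766 and 1.97 CPM with LacZ (2.07 ± 0.35, or 2.93 without LacZ replicate 2). Of the 18 tested antagonists 4 rose and 3 fell, among them the intracellular inhibitor Smad6 (log2 change -0.83).

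Of 10 tested Wnt ligands 2 rose and none fell. Wnt7a was nearly silent in LacZ cells, with 2 counts over both libraries against 357 counts over both MGT libraries, a ratio of 195 after scaling to library size (95% interval 53.6 to 1617, counting error only). Wnt11, a ligand of the calcium-linked branch used in heart development, rose by 0.80 ± 0.17. Wnt antagonists and modulators rose in 3 of 14 tested genes and fell in 4. Among secreted proteins of the Sfrp and Dkk families, which hold Wnt inhibitors, the falls included Sfrp2, Sfrp1 and Dkk3. Sfrp4, Dkk2 and Dkk1 were not called (log2 changes -0.47 and 0.34, and for Dkk1 5 counts over both MGT libraries against 1 over both LacZ libraries). Sfrp2 measured 2.42 and 2.7 CPM with MGT, against 16.2 and 16.1 CPM with LacZ, Sfrp1 214 and 238 CPM with MGT, against 761 and 621 CPM with LacZ and Dkk3 10.3 and 12.5 CPM with MGT, against 30.7 and 30.2 CPM with LacZ, with log2 changes of -2.66 ± 0.19, -1.61 ± 0.14 and -1.42 ± 0.14. In each of these 3 genes both MGT libraries lay below both LacZ libraries. Conversely, Rspo3, a secreted amplifier of Wnt reception, measured 18.4 and 22.5 CPM with MGT, against 4.66 and 5.3 CPM with LacZ (2.03 ± 0.19), and Notum, an enzyme that inactivates Wnt proteins, measured 1.67 and 2.15 CPM with MGT, against 0.128 and 0.282 CPM with LacZ (3.14 ± 0.68, or 3.82 without LacZ replicate 2). Among receptors and targets 7 of 22 rose and 3 fell, or 5 without LacZ replicate 1. The receptor Fzd6 measured 53.1 and 53.8 CPM with MGT, against 8.49 and 8.34 CPM with LacZ, a log2 change of 2.67 ± 0.11 (adjusted p = 1.1e-12), and Fzd4 fell by 0.75. Axin2, a feedback target that many cells switch on when Wnt signalling through beta-catenin is active, measured 4.59 and 3.6 CPM with MGT, against 0.383 and 0.113 CPM with LacZ (4.05 ± 0.49, or 5.09 without LacZ replicate 1 and 3.40 without LacZ replicate 2).

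Of 21 listed fibroblast growth factors 10 passed the filter, and 7 of these rose and none fell, with a median log2 change of 1.30; without LacZ replicate 2, 1 fell. Fgf16, a factor of the heart muscle wall, had 61 counts over both MGT libraries against 3 over both LacZ libraries, a ratio of 22.2 (95% interval 7.26 to 111), and Fgf23, a hormone of phosphate balance, measured 9.49 and 13.3 CPM with MGT, against 2.75 and 3.1 CPM with LacZ (1.95 ± 0.22). Fgf10 measured 25.4 and 26.9 CPM with MGT, against 15.2 and 14.2 CPM with LacZ, a smaller change of 0.83 ± 0.12. Fgf7, which signals to epithelia, was not called, with 163 and 156 CPM with MGT, against 155 and 179 CPM with LacZ. Fgf12 and Fgf14, members that stay in the cell and bind sodium channels, were barely detected, with 23 and 39 counts over both MGT libraries, against 2 and 11 over both LacZ libraries, and the calls of both were lost without LacZ replicate 1 (2.65 and 1.47) or without MGT replicate 1 (3.23 and 1.43). Of 6 tested ligands of the EGF receptor 3 rose and none fell: amphiregulin (Areg, 23 counts over both MGT libraries against 2 over both LacZ libraries), Hbegf (0.96 ± 0.11) and epiregulin (Ereg), which was abundant at 657 and 646 CPM with MGT, against 353 and 349 CPM with LacZ (0.89 ± 0.08).

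The ligands of vessels and mesenchyme split. Of 22 tested, 6 rose and 10 fell, with a median of -0.25; without MGT replicate 1 the number that fell was 6. Placental growth factor (Pgf), which binds the receptor Flt1, measured 54.1 and 49.5 CPM with MGT, against 6.9 and 7.61 CPM with LacZ, a log2 change of 2.83 ± 0.12 (adjusted p = 3.3e-12). Hgf, a growth factor for epithelia and endothelium, measured 119 and 137 CPM with MGT, against 48.7 and 41.9 CPM with LacZ (1.49 ± 0.15), and Pdgfc and Pdgfa rose by 1.23 and 1.17. Vegfd, a growth factor of lymphatic vessels, measured 37.6 and 42.6 CPM with MGT, against 133 and 139 CPM with LacZ (-1.76 ± 0.11). Endothelin 1 (Edn1), a constrictor peptide, measured 24.6 and 20.6 CPM with MGT, against 61.7 and 61 CPM with LacZ (-1.44 ± 0.12), and adrenomedullin (Adm), a dilator peptide, 219 and 227 CPM with MGT, against 438 and 501 CPM with LacZ (-1.08 ± 0.08). For each of these the 2 groups did not overlap. In the insulin-like growth factor system Igfbp5, a binding protein, measured 50.6 and 64.8 CPM with MGT, against 6.45 and 7.15 CPM with LacZ (3.08 ± 0.18), and Igfbp2 rose by 1.76, while Igfbp3 fell by 1.03. Of the 13 tested genes of that system 4 rose and 3 fell, and the falls numbered 1 without MGT replicate 1.

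Among interleukins and cytokines 9 of 31 tested genes rose and 6 fell. The 3 largest rises were of cytokines that act on immune cells or fibroblasts. Tslp, an alarm cytokine of barrier tissues, measured 40.4 and 35.1 CPM with MGT, against 2.81 and 3.21 CPM with LacZ, a log2 change of 3.64 ± 0.16 (adjusted p = 4.5e-12). Tnfsf15, a TNF family ligand of lymphocytes and endothelium, measured 115 and 119 CPM with MGT, against 14.1 and 11.2 CPM with LacZ (3.21 ± 0.19). Il11, a member of the IL-6 family that drives fibroblast activation in mouse heart, measured 41.4 and 53.5 CPM with MGT, against 8.56 and 12.5 CPM with LacZ (2.16 ± 0.18). Il11 hardly moved in neonatal cells, at 0.05, where it was not called, and the response differed between these ages (adjusted p = 0.0084). The archetypal Il6 was not called in 3-month cells, with 578 and 632 CPM with MGT, against 626 and 791 CPM with LacZ (called at -0.40 without LacZ replicate 1), nor was Csf1, the growth factor of macrophages, with 3181 and 3072 CPM with MGT, against 3175 and 2780 CPM with LacZ. Tnfsf10, a death ligand and a known interferon target, fell, with 0.496 and 0.693 CPM with MGT, against 2.94 and 3.15 CPM with LacZ (log2 change -2.36 ± 0.41). The count that rose was 5 without MGT replicate 1, and the count that fell 3 without MGT replicate 2. Of 19 tested chemokines 4 rose and 4 fell, and 2 rose without MGT replicate 2. Ccl20 measured 16.1 and 15.4 CPM with MGT, against 6.0 and 6.59 CPM with LacZ (1.32 ± 0.14), and its change was in the other direction, at -0.75, in neonatal cells. Cxcl5, a neutrophil attractant and one of the most abundant secreted transcripts here, measured 1764 and 1871 CPM with MGT, against 2839 and 3551 CPM with LacZ (-0.81 ± 0.14); Ccl8 and Cxcl10, both known to respond to interferon, fell by 1.88 and 2.88.

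Several peptides of endocrine and nerve cells rose from low levels. Secretogranin II (Scg2), a protein of secretory granules, measured 38.3 and 52.2 CPM with MGT, against 1.02 and 0.958 CPM with LacZ, a log2 change of 5.50 ± 0.24. The B-type natriuretic peptide (Nppb), a hormone of the heart chambers, measured 6.82 and 7.97 CPM with MGT, against 0.128 and 0.169 CPM with LacZ (5.56 ± 0.51), and proenkephalin (Penk) 2.42 and 4.78 CPM with MGT, against 0.383 and 0.507 CPM with LacZ (2.97 ± 0.47). Both MGT libraries lay above both LacZ libraries in each. Of 37 listed ligands of this kind 19 passed the filter, 6 rose and 3 fell, the falls being 0 without LacZ replicate 2 or without MGT replicate 1, 1 without MGT replicate 2 and 5 without LacZ replicate 1. Among cues that steer growing axons and vessels, 6 of 37 rose and 5 fell. Sema3d, a secreted semaphorin, measured 134 and 135 CPM with MGT, against 47.8 and 37.1 CPM with LacZ (1.66 ± 0.12), with -0.35 in neonatal cells, and netrin 4 (Ntn4) rose by 1.37 ± 0.09. Sema6a and Sema6d, which are membrane-bound, fell by 1.35 and 1.33. Without LacZ replicate 1 or without MGT replicate 1, 3 of these genes fell.

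**Figure D3:**
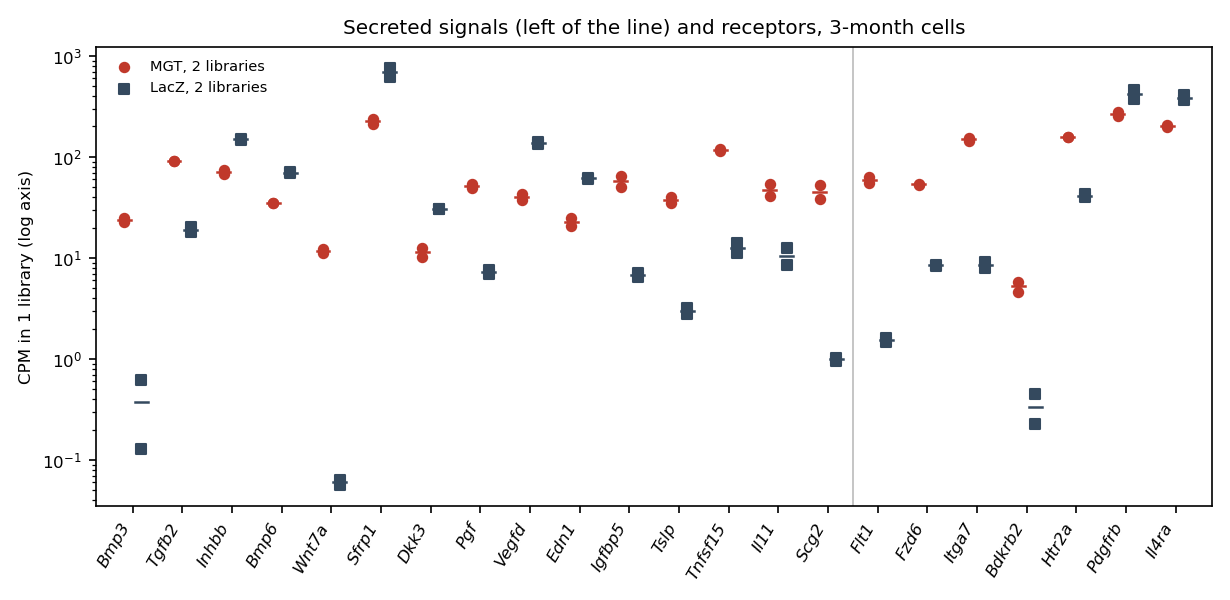
CPM on a log axis (vertical) of 15 secreted signals and 7 receptors (horizontal) in each of the 2 MGT (red circles) and 2 LacZ (dark blue squares) libraries of 3-month cells; short lines are group means. No gene shown overlaps between the groups, and Flt1 lies at 63.5 and 54.9 CPM with MGT, against 1.6 and 1.46 with LacZ.

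Receptors changed alongside ligands. Flt1 (ENSMUSG00000029648, mm10 chromosome 5, 147561604 to 147726011, minus strand), the VEGF and Pgf receptor that marks endothelium, measured 63.5 and 54.9 CPM with MGT, against 1.6 and 1.46 CPM with LacZ, a log2 change of 5.27 ± 0.18 (adjusted p = 1.5e-13). Its change was 1.10 in neonatal and 3.45 in 18-month cells, and the 3-month response exceeded both (adjusted p = 9.6e-10 and 0.0035). Among the other endothelial markers Emcn and Pecam1 were also called higher and Tek was called lower. Cdh5 was not called, with 6.88 and 4.85 CPM with MGT, against 4.34 and 2.93 CPM with LacZ (called at 1.00 without LacZ replicate 1). Endothelial markers rose in 3 of 12 tested genes and fell in 1, and both counts moved by over 1.5 times when 1 library was left out. The 13 listed endothelial markers summed to 532 and 538 CPM with MGT, against 488 and 484 CPM with LacZ. Eng, which makes up most of that sum, was not called, Emcn rose by 1.66, and the part of endothelial cells in the rise of Flt1 was not tested. Of 24 tested receptor tyrosine kinases 7 rose and 4 fell. Fgfr3 rose by 2.30 ± 0.26 and Csf1r, the receptor of Csf1, measured 46 and 43.3 CPM with MGT, against 18.8 and 21.1 CPM with LacZ (1.16 ± 0.11), while Fgfr2 fell by 1.18. The PDGF receptors that fibroblasts rely on fell: Pdgfra measured 590 and 599 CPM with MGT, against 962 and 873 CPM with LacZ (-0.63 ± 0.09) and Pdgfrb 252 and 276 CPM with MGT, against 460 and 378 CPM with LacZ (-0.67 ± 0.10). Csf1r stands among macrophage markers, of which 4 of 12 were called higher (2 without MGT replicate 1) and none lower; they summed to 164 and 167 CPM with MGT, against 107 and 115 CPM with LacZ. In that list Cd14 rose by 0.88, Itgam and Adgre1 were called at 0.64 and 0.55 (not without MGT replicate 1, at 0.61 and 0.53, nor, for Adgre1, without MGT replicate 2, at 0.57), C1qa, C1qb, C1qc, Mrc1 and Ptprc were not called, none was at 0, and the part of macrophages in any result was not tested. In bulk RNA, more cells of a type and more RNA per cell cannot be told apart.

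Of 45 tested receptors of cytokines and of the TGF-beta family 10 rose and 13 fell; the rises numbered 6 without MGT replicate 1. The IL-4 receptor chain Il4ra, whose ligands activate fibroblasts and macrophages, measured 196 and 207 CPM with MGT, against 407 and 363 CPM with LacZ (-0.93 ± 0.11). Its partner chain Il13ra1 moved the other way (0.56 ± 0.08). The leukaemia inhibitory factor receptor (Lifr), the endothelial BMP receptor Acvrl1 and the co-receptor Tgfbr3 fell by 0.91, 0.80 and 0.79. Among 57 tested receptors of hormones and transmitters that couple to G proteins, 11 rose and 6 fell, with a median of 0.16. Adora1, an adenosine receptor of the sinus node and atria, measured 3.91 and 2.84 CPM with MGT, against 0.319 and 0.0563 CPM with LacZ (4.18 ± 0.55, or 5.73 without LacZ replicate 1 and 3.38 without LacZ replicate 2). The bradykinin receptor Bdkrb2 measured 5.83 and 4.64 CPM with MGT, against 0.447 and 0.225 CPM with LacZ (3.96 ± 0.50). In neonatal cells its change of -0.81 was not called. Its level there was low, at 0.225 ± 0.32 CPM with MGT, against 0.411 ± 0.022 CPM with LacZ (mean ± SD). The difference between the ages passed the test (adjusted p = 0.0062, edgeR). The prostaglandin F receptor Ptgfr measured 12.4 and 14.1 CPM with MGT, against 1.53 and 2.08 CPM with LacZ (2.86 ± 0.26). The serotonin receptor Htr2a, the most abundant of these rises, measured 157 and 157 CPM with MGT, against 42.5 and 40.1 CPM with LacZ (1.93 ± 0.09). The adenosine receptor Adora2b, the vasopressin receptor Avpr1a and the natriuretic peptide clearance receptor Npr3 fell by 0.76, 0.67 and 0.83.

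Integrins, the receptors that hold cells to matrix, rose in 10 of 24 tested genes and fell in 3, with a median log2 change of 0.36; without MGT replicate 1, 1 fell. Itga7 (ENSMUSG00000025348, mm10 chromosome 10, 128933818 to 128958282, plus strand), the laminin receptor of skeletal and heart muscle, measured 145 and 154 CPM with MGT, against 9.01 and 8.0 CPM with LacZ, a log2 change of 4.14 ± 0.13 (adjusted p = 4.5e-14). Its change was 1.06 in neonatal and 4.07 in 18-month cells. Itga6, another laminin receptor, and Itgb3, a receptor for vitronectin and osteopontin, rose by 1.81 ± 0.13 and 1.43 ± 0.09. The fibronectin receptor chain Itga5 measured 526 and 511 CPM with MGT, against 320 and 297 CPM with LacZ (0.75 ± 0.09), and Itgav was not called (431 and 413 CPM with MGT, against 481 and 484 CPM with LacZ; called at -0.21 without LacZ replicate 1 and at -0.28 after exon-length correction). Genes of cell-cell contacts moved in both directions. Cdh13, an atypical cadherin anchored by a lipid, measured 51.2 and 63 CPM with MGT, against 8.17 and 6.87 CPM with LacZ (2.92 ± 0.15). The junction protein Jam2 measured 507 and 562 CPM with MGT, against 196 and 190 CPM with LacZ (1.47 ± 0.09), and the connexin Gja3 2.91 and 2.7 CPM with MGT, against 0.319 and 0.169 CPM with LacZ (3.51 ± 0.44). Of 22 tested cadherins 3 rose and 3 fell; without LacZ replicate 1, 6 rose and 1 fell, and without MGT replicate 2, 1 fell. Of 21 tested genes of gap and tight junctions 7 rose and 2 fell, or 1 without MGT replicate 1.

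Several ion channel genes of heart and nerve rose, many of them from near 0, while others fell or were not called. The listed potassium channel genes summed to 274 and 299 CPM with MGT, against 291 and 306 CPM with LacZ. Of 55 listed potassium channel genes 30 passed the filter; 12 rose and 3 fell, with a median log2 change of 0.90. Without LacZ replicate 2 the rises numbered 7, and without MGT replicate 1 the falls numbered 1. Kcnc4, a channel of fast repolarisation, had no count in either LacZ library against 131 counts over both MGT libraries, at least 47.7-fold higher against a floor of 3 counts over the group. Hcn4, the pacemaker channel of the sinus node, likewise had no LacZ count and 117 MGT counts, at least 42.6-fold higher. Kcna6 had 320 counts over both MGT libraries against 1 over both LacZ libraries (95% interval of the ratio 62.3 to 13859). Kcna4, a channel of early repolarisation, had 28 counts over both MGT libraries against 1 over both LacZ libraries (95% interval of the ratio 5.06 to 1252), and Kcnj5, a channel of atrial cells opened by acetylcholine, rose by 3.91 ± 0.68, or 8.0 without LacZ replicate 1 and 2.86 without LacZ replicate 2. A channel already present, Kcnab1, the regulatory subunit of voltage-gated channels, fell by 0.97. Of 40 tested sodium, HCN, chloride and TRP channel genes 10 rose and 4 fell; the rises numbered 6 without LacZ replicate 2 or MGT replicate 2, and the falls 2 without MGT replicate 2. Clic5, a chloride channel protein, measured 9.55 and 11 CPM with MGT, against 0.894 and 1.46 CPM with LacZ (3.10 ± 0.24). Scn7a, a sodium-sensing channel expressed in fibroblasts and glia, measured 7.69 and 7.41 CPM with MGT, against 39.4 and 29.9 CPM with LacZ (-2.19 ± 0.15). Of 37 tested genes of calcium channels and handling 14 rose and none fell, with 9 rises without either MGT replicate and 1 fall without either LacZ replicate. Casq2, the calcium-binding protein of the heart's sarcoplasmic reticulum, had 335 counts over both MGT libraries against 3 over both LacZ libraries (95% interval of the ratio 41.4 to 595). Of the markers of mature cardiomyocytes, Myh6, Mb, Pln and Ckmt2 had no count in any of the 4 libraries. The 13 listed markers summed to 27.2 and 26.8 CPM with MGT, against 7.34 and 5.75 CPM with LacZ. Only 6 of them passed the filter, of which 2 rose, none fell and 4 were not called. The part of such cells was not tested.

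The delivered factors bind known DNA motifs, and the letters before a start site are shown for 5 of the steep rises: 3 windows that hold a match to the MEF2 motif and 2 that hold the GATA motif AGATAA. Each run is the 250 bases before a RefSeq start site (GRCm38.p6, the assembly behind mm10), 5′ to 3′ on the gene's strand, with the match in capitals. The windows are Casq2 at chr3:102086165-102086414 (plus strand), Mal at chr2:127656696-127656945 (minus), Clic5 at chr17:44188322-44188571 (plus), Scg2 at chr1:79440027-79440276 (minus) and Nppb at chr4:147985650-147985899 (plus). By the gene spans of the deposited table, the Clic5 window lies inside the gene and those of Scg2 and Nppb overlap the gene's listed start.
Casq2: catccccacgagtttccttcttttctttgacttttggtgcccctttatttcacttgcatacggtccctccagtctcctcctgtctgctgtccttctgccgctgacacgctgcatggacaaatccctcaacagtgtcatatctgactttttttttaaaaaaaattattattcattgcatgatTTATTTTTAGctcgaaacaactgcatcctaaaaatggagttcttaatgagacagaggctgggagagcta
Mal: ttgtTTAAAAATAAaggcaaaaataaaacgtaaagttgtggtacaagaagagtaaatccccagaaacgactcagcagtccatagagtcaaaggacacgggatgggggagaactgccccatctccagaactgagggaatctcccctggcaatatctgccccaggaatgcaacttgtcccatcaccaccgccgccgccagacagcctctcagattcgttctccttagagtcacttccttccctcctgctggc
Clic5: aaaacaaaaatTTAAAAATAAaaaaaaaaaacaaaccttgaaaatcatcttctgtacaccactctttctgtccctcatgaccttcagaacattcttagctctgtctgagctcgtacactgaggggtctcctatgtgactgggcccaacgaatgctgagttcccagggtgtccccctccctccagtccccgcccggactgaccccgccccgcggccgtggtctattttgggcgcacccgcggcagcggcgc
Scg2: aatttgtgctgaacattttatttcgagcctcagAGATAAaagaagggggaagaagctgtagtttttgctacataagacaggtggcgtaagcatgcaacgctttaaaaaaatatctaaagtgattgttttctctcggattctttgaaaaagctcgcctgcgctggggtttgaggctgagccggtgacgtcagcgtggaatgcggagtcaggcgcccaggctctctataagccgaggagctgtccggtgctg
Nppb: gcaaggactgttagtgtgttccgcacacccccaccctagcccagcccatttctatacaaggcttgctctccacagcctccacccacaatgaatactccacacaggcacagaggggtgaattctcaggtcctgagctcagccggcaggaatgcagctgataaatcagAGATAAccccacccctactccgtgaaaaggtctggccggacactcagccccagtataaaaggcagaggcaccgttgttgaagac

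Mal, a membrane protein of lipid rafts, measured 15.1 and 12.5 CPM with MGT, against 0.192 and 0.901 CPM with LacZ (4.59 ± 0.40, or 3.92 without LacZ replicate 1 and 6.12 without LacZ replicate 2); the values of the other 4 genes stand above. The match begins 69 bases before the start in Casq2 and 84 before it in Nppb, but 246, 239 and 217 before it in Mal, Clic5 and Scg2. Searched on both strands over windows of 300 bases (250 before and 50 after each start), the MEF2 motif was in 3.19% of 32851 mouse promoters and in 1.71% of the 12163 promoters of tested genes. It was in 3.06% of the 1371 promoters of genes called higher and in 1.44% of the 1112 of genes called lower. Among the 203 promoters of genes called at least 4-fold higher it was in 17, or 8.37%. The motif AGATAA was in 11.2% of all promoters, 6.4% of promoters of tested genes, 6.86% of those called higher and 10.8% of those at least 4-fold higher, and in 9.44% of those at least 2-fold lower. The T-box motif AGGTGT was in 13.7%, 10.8%, 12.3%, 15.3% and 10% of the same groups. A match is a string of letters and does not show that a factor binds there; genes with several promoters are counted by promoter.

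Cholesterol synthesis and uptake fell in 3-month cells. Of 27 genes chosen for this list 23 were found in the deposited table, and all 23 passed the filter. Among them 16 fell, none rose and 7 were not called, with a median log2 change of -0.60. Insig1 (ENSMUSG00000045294, mm10 chromosome 5, 28071363 to 28078662, plus strand), the sterol sensor of the endoplasmic reticulum and itself a target of the sterol-regulated factor SREBP-2, measured 30.9 and 35.2 CPM with MGT, against 77.9 and 77.8 CPM with LacZ. Both MGT libraries lay below both LacZ libraries, with a log2 change of -1.24 ± 0.10 (adjusted p = 4.8e-08). Cyp51, the enzyme that demethylates lanosterol, measured 31.2 and 31 CPM with MGT, against 68.3 and 61.1 CPM with LacZ (-1.06 ± 0.10). Msmo1, the next oxidase in the pathway, measured 24.1 and 25.4 CPM with MGT, against 45.6 and 43.6 CPM with LacZ (-0.85 ± 0.10), and squalene synthase (Fdft1) 17.5 and 20.8 CPM with MGT, against 31.2 and 37.2 CPM with LacZ (-0.84 ± 0.12). Further falls ran through the pathway from its early steps (Acat2, -0.82; Mvk, -0.71) to a late one (Nsdhl, -0.81), and included the regulator Srebf2 (-0.49, or -0.28 without LacZ replicate 1). Sqle, the epoxidase that acts on squalene, was not called (-0.35; adjusted p = 0.059). It was called lower at -0.47 without LacZ replicate 2, and also after exon-length correction and with every gene kept. Without 1 library at a time, 13 to 17 of these genes fell and none rose.

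This fall differed between ages. In neonatal cells 4 of the 23 fell and none rose (median -0.21), and in 18-month cells 1 fell and 2 rose (median 0.09). The response was more negative at 3 months than in neonatal cells for 5 of the 23 (1.67% of all genes), and more positive at 18 months than at 3 months for 11 (1.68% of all genes). Insig1 measured 42.3 ± 4.7 CPM with MGT, against 60.8 ± 6.3 CPM with LacZ in neonatal cells, and 36.2 ± 0.74 CPM with MGT, against 42.1 ± 0.48 CPM with LacZ in 18-month cells (mean ± SD, n = 2 each), with a mean of 33.1 CPM with MGT, against 77.9 CPM with LacZ at 3 months. Cyp51 measured 47.1 ± 1.9 CPM with MGT, against 62.6 ± 2.1 CPM with LacZ in neonatal and 54.8 ± 0.36 CPM with MGT, against 57.3 ± 8.5 CPM with LacZ in 18-month cells. In both genes the 18-month response was called more positive than the 3-month one (adjusted p = 0.00091 and 0.001).

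**Figure D4:**
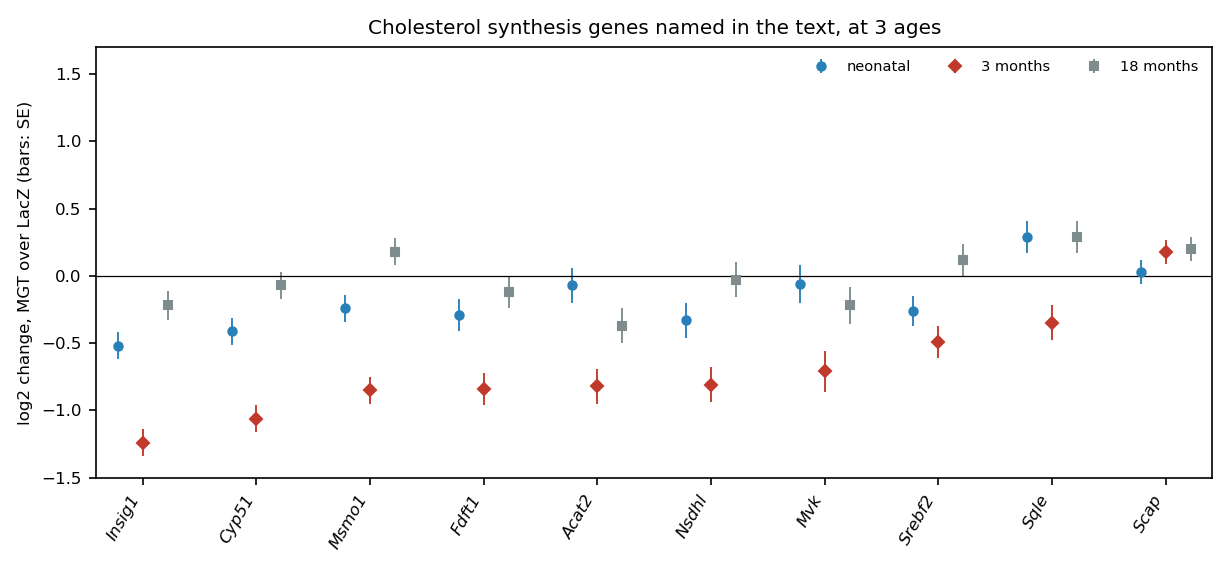
Log2 change of MGT over LacZ (vertical; bars, SE from edgeR) of the genes of cholesterol synthesis named in the text and of Scap, the escort protein of SREBP (horizontal, ordered by the 3-month change) in neonatal, 3-month and 18-month cells. Most 3-month points lie below both others, from -1.24 for Insig1, while Scap, at 0.18, is not called.

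Other lipid genes moved less evenly. Of 27 genes of cholesterol efflux and sterol metabolism 3 rose, or 5 without LacZ replicate 1, and 10 fell. Abca1, the pump that loads cholesterol onto apolipoproteins, rose by 1.00 ± 0.15 and Star, which feeds cholesterol into mitochondria, by 1.68 ± 0.18. Apoe, an apolipoprotein secreted by many tissue cells, measured 17.6 and 19.8 CPM with MGT, against 39.3 and 41.8 CPM with LacZ (-1.12 ± 0.12), and Cyp7b1, an oxysterol hydroxylase, fell by 2.47. Lipoprotein lipase (Lpl), which releases fatty acids from lipoproteins, measured 141 and 137 CPM with MGT, against 354 and 269 CPM with LacZ (-1.16 ± 0.12), and the desaturases Fads2, Scd2 and Fads1 fell by 0.76, 0.70 and 0.57. Of 31 tested genes of lipid synthesis and storage 5 rose and 4 fell; 1 rose without either MGT replicate and 8 without LacZ replicate 1. Of 41 tested genes of fatty acid uptake and oxidation 1 rose and 7 fell, with 2 falls without MGT replicate 1, 3 without MGT replicate 2 and 11 without LacZ replicate 1, and with 2 rises without LacZ replicate 2. Fabp3, a fatty acid carrier of heart muscle, was the 1 that rose (1.18 ± 0.18).

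Enzymes that start prostaglandin synthesis from arachidonic acid rose. Of 22 tested genes of eicosanoid metabolism 7 rose and 5 fell; without LacZ replicate 2 or MGT replicate 1 the falls numbered 3. Ptgs2 (ENSMUSG00000032487, mm10 chromosome 1, 150100031 to 150108227, plus strand), the inducible cyclooxygenase and target of anti-inflammatory drugs, measured 1263 and 1332 CPM with MGT, against 185 and 211 CPM with LacZ, a log2 change of 2.71 ± 0.12 (adjusted p = 3.3e-12). The phospholipase Pla2g4a, which frees arachidonic acid from membranes, measured 238 and 275 CPM with MGT, against 95.1 and 109 CPM with LacZ (1.33 ± 0.09), and the secreted phospholipase Pla2g2e 15.4 and 19.2 CPM with MGT, against 3.0 and 3.72 CPM with LacZ (2.35 ± 0.21). The constitutive cyclooxygenase Ptgs1 measured 258 and 272 CPM with MGT, against 107 and 140 CPM with LacZ (1.10 ± 0.12) and the prostaglandin E synthase Ptges 54.1 and 52.9 CPM with MGT, against 29.1 and 31.7 CPM with LacZ (0.81 ± 0.11). Each of these enzymes was higher in both MGT libraries than in either LacZ library. Ptgis, which makes prostacyclin, was not called, with 432 and 428 CPM with MGT, against 344 and 414 CPM with LacZ (called at 0.32 without LacZ replicate 2 and at 0.26 after exon-length correction), nor was Hpgd, which breaks prostaglandins down, at 4.15 and 4.09 CPM with MGT, against 3.96 and 5.07 CPM with LacZ. The epoxide hydrolase Ephx2 fell by 1.12. Ptgs2 measured 255 ± 52 CPM with MGT, against 122 ± 8.2 CPM with LacZ in neonatal cells, where its change was 1.06, and 1187 ± 52 CPM with MGT, against 441 ± 28 CPM with LacZ in 18-month cells, with 1.43. The 3-month response was called larger than both (adjusted p = 1.9e-06 and 0.00021). Ptgs1 went the other way in neonatal cells, with a change of -0.49, and that difference was called too (adjusted p = 1.2e-05). In all, 6 of the 22 responses were called more positive at 3 months than in neonatal cells and 2 more negative, beside 2.82% and 1.67% of all genes.

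Genes of glucose use changed at single steps. Of 28 tested genes of glycolysis and lactate 5 rose and 8 fell. Among the kinases that inhibit pyruvate dehydrogenase, Pdk4 rose and Pdk1 fell: Pdk4, a kinase of fasting muscle and heart, measured 52.2 and 60.9 CPM with MGT, against 7.73 and 8.68 CPM with LacZ (2.78 ± 0.14), and Pdk1, a kinase induced by low oxygen, 19.3 and 17.8 CPM with MGT, against 42.5 and 38.3 CPM with LacZ (-1.12 ± 0.15). The phosphofructokinase Pfkl measured 92.7 and 94.6 CPM with MGT, against 174 and 168 CPM with LacZ (-0.87 ± 0.08). The lactate exporter Slc16a3 measured 52.4 and 50.9 CPM with MGT, against 101 and 94.8 CPM with LacZ (-0.92 ± 0.10). Pfkp, another phosphofructokinase, was called higher instead, as were Pgam2 and Pfkfb2, and Eno2 was called lower. Pkm and Slc2a1, the last enzyme of glycolysis and the main glucose importer, were not called (-0.10 and -0.13; Pkm was called at -0.19 without LacZ replicate 1). Genes that low oxygen induces fell in 11 of 27 tested and rose in 4, with a median of -0.26; without MGT replicate 1 the falls numbered 7. Ndufa4l2, a mitochondrial protein of hypoxic cells, fell by 2.60, with 3.04 and 2.36 CPM with MGT, against 17.1 and 15.8 CPM with LacZ, and Ddit4, an inhibitor of mTORC1, by 0.84. Egln3, an oxygen sensor, and Stc2 rose by 1.64 ± 0.16 and 1.89 ± 0.14.

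Mitochondrial energy genes gave few calls at this depth. Of 68 tested nuclear genes of oxidative phosphorylation 1 rose and 2 fell, with a median log2 change of -0.13, and of 29 genes of the citric acid cycle 1 rose and 2 fell. Without LacZ replicate 1, 37 genes of oxidative phosphorylation and 10 of the citric acid cycle were called lower. Without any 1 of the other 3 libraries, 1 gene of oxidative phosphorylation and none of the citric acid cycle was called lower; no gene of oxidative phosphorylation rose without MGT replicate 2, and 3 of the citric acid cycle rose without LacZ replicate 2. In 18-month cells 22 of the 68 fell and 1 rose. Cox4i2, a cytochrome oxidase subunit of hypoxic tissue, was called at 3 months (-1.34 ± 0.27). Amino acid genes gave more calls, with 13 of 51 tested higher and 8 lower. The taurine transporter Slc6a6 measured 1084 and 1083 CPM with MGT, against 361 and 285 CPM with LacZ (1.75 ± 0.10), and cysteine dioxygenase (Cdo1), an early step of taurine synthesis, measured 19.4 and 25.2 CPM with MGT, against 3.58 and 4.62 CPM with LacZ (2.43 ± 0.17). The glutamate transporter Slc1a3 measured 4.9 and 4.99 CPM with MGT, against 17.5 and 17.5 CPM with LacZ (-1.82 ± 0.20). Redox genes moved both ways, 8 of 46 higher and 8 lower; the falls numbered 18 without LacZ replicate 1 and 5 without LacZ replicate 2 or MGT replicate 1, and the rises 5 without MGT replicate 2. Nqo1, a quinone reductase that the factor NRF2 controls, measured 110 and 113 CPM with MGT, against 54.2 and 71.1 CPM with LacZ (0.83 ± 0.11), with -0.63 in neonatal cells. Among retinoid genes Dhrs9, a retinol dehydrogenase, rose by 2.33 ± 0.20.

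The matrix changed in composition. Fibrillar collagens and their processing genes rose in 5 of 35 tested and fell in 12, with a median log2 change of -0.18. Both counts moved by over 1.5 times when 1 library was left out. Of 50 tested matrix glycoproteins 13 rose and 13 fell (8 fell without either MGT replicate), of 46 proteoglycans and elastic fibre genes 9 rose and 19 fell with a median of -0.33, and of 20 non-fibrillar collagens 9 rose and 4 fell. Nidogen 2 (Nid2, ENSMUSG00000021806, mm10 chromosome 14, 19751265 to 19811787, plus strand), a linker of basement membranes, measured 3019 and 3265 CPM with MGT, against 261 and 188 CPM with LacZ, a log2 change of 3.81 ± 0.15 (adjusted p = 6.7e-13), and the deposited FPKM averaged 606 with MGT, against 43.4 with LacZ. Its relative Nid1 was not called (0.07; called at 0.26 without LacZ replicate 1). Nephronectin (Npnt), an integrin ligand of basement membranes, measured 336 and 368 CPM with MGT, against 37.6 and 31.5 CPM with LacZ (3.35 ± 0.11). Cthrc1, a protein that activated fibroblasts secrete, measured 196 and 225 CPM with MGT, against 29.1 and 38.3 CPM with LacZ (2.64 ± 0.12), and tenascin C (Tnc), a protein of injured and developing tissue, 3161 and 3042 CPM with MGT, against 1731 and 1301 CPM with LacZ (1.03 ± 0.10). The 2 groups were far apart in Nid2 and Npnt and closer in Tnc, where they did not overlap. The cartilage proteoglycan Acan and the pericyte proteoglycan Cspg4 measured 7.88 and 7.76 CPM with MGT, against 0.128 and 0.113 CPM with LacZ and 30.5 and 23.8 CPM with MGT, against 2.68 and 1.46 CPM with LacZ, changes of 5.94 ± 0.38 and 3.73 ± 0.21. Smooth muscle and pericyte markers, of which Cspg4 is one, summed to 1977 and 2021 CPM with MGT, against 1237 and 1301 CPM with LacZ, with Higd1b and Vtn at 0 counts in all 4 libraries and Acta2 the bulk of the sum, and their part in these results was not tested.

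Other matrix genes fell. The collagen VI chains Col6a1 and Col6a2, which form beaded filaments around cells, measured 119 and 135 CPM with MGT, against 320 and 290 CPM with LacZ and 62.4 and 63.8 CPM with MGT, against 180 and 149 CPM with LacZ (-1.27 ± 0.12 and -1.38 ± 0.15). Non-fibrillar collagens rose in 9 genes and fell in 4, and the rises included Col6a6, another collagen VI chain, Col10a1, Col12a1 and Col19a1. Col14a1, a collagen on the surface of fibrils, and the microfibril protein Mfap4 fell by 2.49 and 1.92. Elastin (Eln) fell by 1.47, and the leucine-rich proteoglycan Prelp measured 113 and 135 CPM with MGT, against 385 and 282 CPM with LacZ (-1.42 ± 0.12). Ccn5, a matricellular inhibitor of smooth muscle growth, measured 185 and 222 CPM with MGT, against 445 and 499 CPM with LacZ (-1.21 ± 0.14), while its relative Ccn4, a Wnt-induced protein, measured 386 and 394 CPM with MGT, against 97.1 and 89.2 CPM with LacZ (2.07 ± 0.09). Decorin (Dcn) and versican (Vcan) were not called (-0.14 and -0.04). Proteases and inhibitors of the matrix fell in 20 of 63 tested genes and rose in 11; the falls numbered 13 without MGT replicate 1. The aggrecanase Adamts5 measured 186 and 186 CPM with MGT, against 484 and 451 CPM with LacZ (-1.33 ± 0.10) and stromelysin (Mmp3) 888 and 972 CPM with MGT, against 1756 and 2175 CPM with LacZ (-1.08 ± 0.10), while the urokinase receptor Plaur measured 123 and 117 CPM with MGT, against 46.6 and 52.7 CPM with LacZ (1.27 ± 0.10). Complement and coagulation genes fell in 11 of 34 and rose in 4, with 6 falls without MGT replicate 1. Cd55, a brake on complement held on the cell surface, measured 241 and 268 CPM with MGT, against 104 and 110 CPM with LacZ (1.25 ± 0.12).

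**Figure D5:**
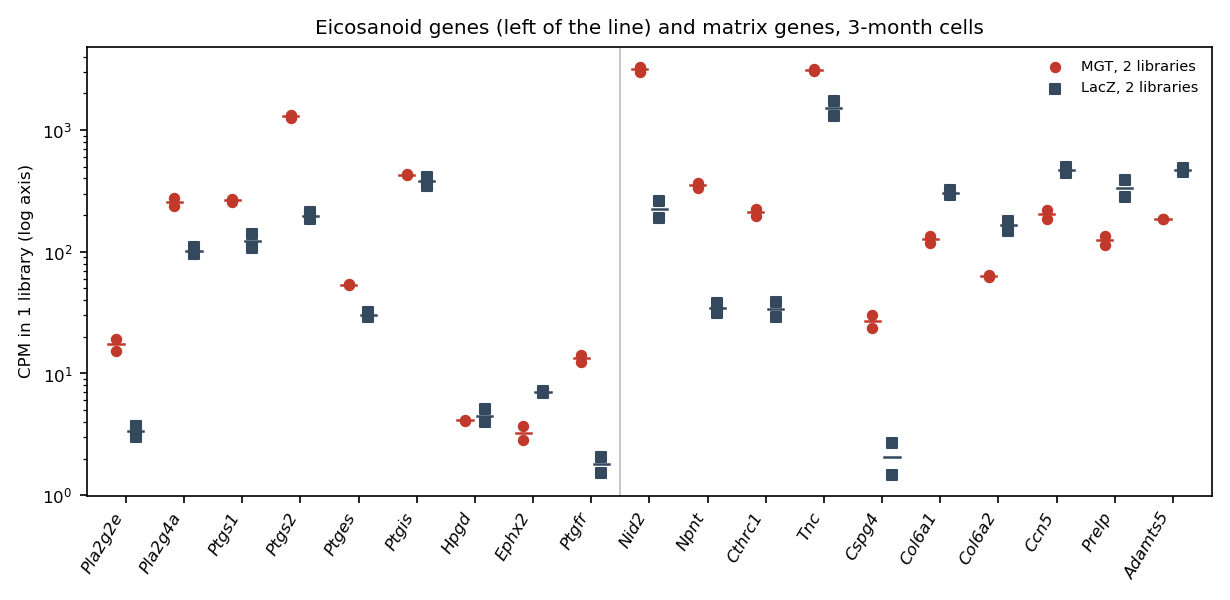
CPM on a log axis (vertical) of eicosanoid genes and matrix genes named in the text (horizontal) in each of the 2 MGT (red circles) and 2 LacZ (dark blue squares) libraries of 3-month cells; short lines are group means. Ptgs2 lies at 1263 and 1332 CPM with MGT, against 185 and 211 with LacZ, and Nid2 at 3019 and 3265 CPM with MGT, against 261 and 188 with LacZ.

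Transcription factors of the fibroblast state fell in 18 of 44 tested genes and rose in 2, with a median of -0.26; without LacZ replicate 1, 4 rose. Tcf21, a factor of cardiac fibroblast descent, fell by 1.34 and Sox9, a factor of cartilage and of fibroblast matrix genes, measured 23.7 and 26.3 CPM with MGT, against 68.1 and 71.5 CPM with LacZ (-1.48 ± 0.12). Klf5, a factor of proliferating smooth muscle and activated fibroblasts, rose against this trend, with 26.6 and 27.3 CPM with MGT, against 4.34 and 6.31 CPM with LacZ (2.33 ± 0.16). Among heart and muscle factors, the smooth and heart muscle co-activator Myocd and the conduction system factor Tbx3 rose by 3.78 ± 0.47 (3.19 and 4.96 without LacZ replicate 1 and 2) and 2.34 ± 0.24, while Tbx20 and Hand2 fell by 0.55 and 0.51; in all, 6 of 34 rose and 5 fell, or 3 without MGT replicate 1. Cell cycle genes fell in 19 of 46 and rose in none, with a median of -0.27. The members that fell changed little, among them the phosphatase Cdc25b (-0.60), the cyclin Ccnb2 (-0.53) and the checkpoint kinase Bub1b (-0.48), and Mki67 and Top2a were not called (-0.06 and -0.15; Top2a was called at -0.27 without LacZ replicate 2). The falls numbered 12 without LacZ replicate 2 or MGT replicate 1, 7 without MGT replicate 2 and 8 in the fit on the 4 libraries alone, and 1 gene rose without LacZ replicate 1. In neonatal cells 1 of the 46 fell, and in 18-month cells 35. Cytoskeletal genes of actin and smooth muscle rose in 15 of 41 and fell in 4, or 2 without LacZ replicate 2 or either MGT replicate.

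Gene ontology terms were counted as the deposited table gives them. The term fields of 3611 genes reach the 255-character limit at which they are cut, so counts per term are incomplete, and these counts were not recomputed without single libraries. Of 430 tested genes under extracellular space 96 were higher, 101 lower and 233 not called, and of 88 under growth factor activity 27 were higher, 19 lower and 42 not called. Under heparin binding 15 of 87 were higher and 26 lower, and under integrin binding 21 of 62 were higher and 12 lower. Under the term ion transport itself 6 of 35 were higher and 3 lower (median log2 change 0.06). Of its kinds, 13 of 31 genes of potassium ion transport were higher and 1 lower (median log2 change 0.77), 10 of 31 of sodium ion transport higher and 1 lower, and 8 of 19 of calcium ion transport higher and none lower. Under ossification 9 of 21 were higher and 1 lower, with Acan and Bmp3 in front, and under wound healing none of 21 was higher and 5 were lower, among them Fmod and Mmp3 (-1.41 and -1.08). Cholesterol biosynthetic process had none of 11 higher and 7 lower. Of terms of the cell's interior, 50 of 788 genes under mitochondrion were higher and 71 lower, 1 of 142 under translation higher and 16 lower, and 7 of 214 under cell division higher and 38 lower.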

How the data were processed

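The labels' protocols describe TRIzol extraction, removal of ribosomal RNA, a kit that marks the strand and paired reads from a HiSeq X10; the molecule field names polyadenylated RNA instead. The deposited table holds counts per gene and FPKM values that the authors computed from them, per the file headers. Trimmomatic 0.36, featureCounts (Subread 1.5.1), SAMtools and mm10 come from the submitters' processing notes. The sources used here name no aligner, annotation or strand setting, so overlapping and antisense genes are uncertain. Since every title names MGT, groups follow the treatment field. Genes with identifiers after ENSMUSG00000057457 are not analysed here.

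Library sizes were the totals of 14489848 to 17576303 for the 4 libraries that counts and FPKM of at least 20 imply; 3 counts, the limit that a count of 0 allows, are 0.169 to 0.208 CPM. CPM were computed on these sizes after TMM. All 12 libraries were fitted with edgeR 4.0.16 in R 4.3.3 as 6 group means (filterByExpr, TMM, quasi-likelihood F-test, Benjamini-Hochberg over 11940 genes), and the standard error is the absolute log2 change over the square root of F. A list's median is over its tested genes; with genes at 0 set to their bound it was the same to 2 decimals. The fit was checked on simulated counts. The 71 gene lists and 72 ontology terms were chosen with earlier results of these data known. Named genes are the largest changes overall and in each list (4 a direction) or term (3 a direction), plus uncalled central members; Htr2a, Itga5, Ptges, Ptgs1, Srebf2 and Tnc were named after their values were seen. Values of some single genes are not reported here; they remain in the counts per list.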

Additional observations from a re-analysis of the deposited data

Results flagged for a closer look

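The genes counted here leave out those named above only as called higher or lower, without a value. Of these 201 tested genes named in the text, 118 responded to MGT differently at different ages. The test was edgeR's, of the difference itself (adjusted p below 0.05, 2 libraries a group). There were 101 such differences between 3-month and neonatal cells and 52 between 18-month and 3-month cells, beside 4.49% and 2.38% of all tested genes. Most named genes were picked for large 3-month changes, which enter both differences. These counts therefore say nothing about such genes as a group. Each value is a difference between log2 changes, 3-month minus neonatal or 18-month minus 3-month, so a positive one means a more positive response at the later age. For Casq2, Fgf16, Kcna4, Kcna6, Krt18 and Wnt7a, with 3 or fewer LacZ counts at 3 months, the fitted value depends on the prior count and is no bound. Age and cell preparation cannot be told apart in any of them.

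Among the named ligands and binding proteins that rose at 3 months, 3-month minus neonatal was 3.91 for Fgf16, 3.33 for Bmp3, 3.06 for Wnt7a, 1.58 for Pgf, 1.04 for Igfbp5, 1.01 for Wnt11, 0.93 for Tgfb2, 0.89 for Pdgfa, 0.84 for Igfbp2 and 0.67 for Hbegf. It was 0.77 for Igfbp3, which fell at both ages. It was negative for Gdf10 (-4.00), Dkk3 (-0.99), Sfrp1 (-0.88), Edn1 (-0.81), Inhbb (-0.66), Vegfd (-0.61) and Bmp6 (-0.52). From 3 to 18 months the response became more positive in Dkk3 (1.18), Gdf6 (0.80), Inhbb (0.75), Bmp6 (0.72), Tgfb3 (0.61), Smad6 (0.50) and Adm (0.46), and more negative in Fgf10 (-0.86) and Dkk2 (-2.24).

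Cytokines and peptides gave 3-month minus neonatal differences of 2.86 for Nppb, 2.12 for Il11, 2.07 for Ccl20, 2.01 for Sema3d and 1.49 for Tslp, and of -2.07 for Tnfsf10 and -1.80 for Cxcl10. Cxcl10 and Ccl8 responded more positively at 18 than at 3 months (2.61 and 2.02), and Tnfsf15 and Tslp less so (-1.02 and -1.0).

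Among the named receptors, adhesion and surface proteins the response was more positive at 3 months than in neonatal cells in these: Bdkrb2 by 4.77, Flt1 by 4.17, Itga7 by 3.08, Gja3 by 2.54, Emcn by 2.13, Fzd6 by 1.62, Cdh13 by 1.59, Plaur by 1.24, Htr2a by 1.15, Csf1r by 1.10, Cd55 by 1.05, Itga6 by 0.90 and Itgb3 by 0.59. Bdkrb2 was at a low level in neonatal cells, with means of 0.225 CPM with MGT and 0.411 CPM with LacZ, and was not called there. The values of Il13ra1 (-0.86), Jam2 (-0.73), Il4ra (-0.55) and Acvrl1 (-0.47) were negative. Acvrl1 was more positive at 18 months (0.67), while Flt1 (-1.82), Htr2a (-0.95) and Plaur (-0.77) were less positive there.

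For channels, muscle genes and their factors, 3-month minus neonatal was 4.85 in Kcna4, 4.28 in Kcna6, 3.05 in Casq2, 2.82 in Kcnj5, 2.66 in Mal, 2.27 in Myocd, 1.47 in Tbx3 and 1.19 in Clic5. Scn7a (-1.19) and Tbx20 (-0.53) were negative, and their 18-month minus 3-month differences were positive (1.33 and 0.77). A positive difference does not by itself mean a rise with MGT at 18 months.

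Of the named cholesterol genes Acat2 (-0.75), Insig1 (-0.71), Cyp51 (-0.65), Sqle (-0.64) and Msmo1 (-0.61) responded more negatively at 3 months than in neonatal cells. From 3 to 18 months Msmo1 (1.04), Insig1 (1.02), Cyp51 (0.99), Nsdhl (0.78) and Fdft1 (0.72) became more positive. Other lipid genes with negative 3-month minus neonatal values were Cyp7b1 (-1.90), Lpl (-0.95), Ephx2 (-0.89), Apoe (-0.81) and Scd2 (-0.62). At 18 months Lpl (1.68), Ephx2 (1.19), Apoe (1.08), Fads2 (0.70), Scd2 (0.60) and Fads1 (0.53) were more positive than at 3 months. Several named prostaglandin genes and Star responded more positively at 3 months than in neonatal cells. The differences were 2.36 for Pla2g2e, 1.65 for Ptgs2, 1.59 for Ptgs1, 1.57 for Star and 0.81 for Pla2g4a, and Ptgs2 was less positive at 18 months (-1.28). For Hpgd, which breaks prostaglandins down and was not called at 3 months, the 3-month minus neonatal difference was 2.98.

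In energy, amino acid and redox metabolism, 3-month minus neonatal was 2.06 for Dhrs9, 1.92 for Pdk4, 1.47 for Nqo1 and 0.64 for Slc6a6, and -0.66 for Ddit4, -0.56 for Pfkl and -0.53 for Slc16a3. The 18-month minus 3-month values were 2.85 for Ndufa4l2, 1.29 for Slc1a3, -1.03 for Dhrs9, -0.75 for Pdk4 and -0.66 for Slc6a6.

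Of the named matrix genes that rose at 3 months, these were more positive there than in neonatal cells: Acan by 3.62, Cspg4 by 2.88, Ccn4 by 1.52, Tnc by 1.02, Npnt by 0.78, Cthrc1 by 0.73 and Nid2 by 0.69. Further values of this sign belonged to the factor Klf5 (0.86) and to Dcn (0.64), which was not called at 3 months. Negative values were those of Col14a1 (-1.73), Mfap4 (-1.29), Ccn5 (-1.18), Sox9 (-1.13), Col6a2 (-0.89), Col6a1 (-0.61) and Adamts5 (-0.59). Of the named matrix and matrix-regulating genes that fell at 3 months, these responded more positively at 18 months: Eln by 1.91, Mfap4 by 1.77, Col14a1 by 1.69, Ccn5 by 1.12, Sox9 by 0.87, Col6a2 by 0.85, Mmp3 by 0.81, Prelp by 0.81 and Col6a1 by 0.73. Npnt (-0.81) and Tnc (-0.70) were less positive at 18 months.

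Of the delivered factors, 3-month minus neonatal was 1.37 for Tbx5 and 0.94 for Mef2c. Among the epithelial, surface and stress genes it was 6.04 for Upk1b, 5.14 for Krt18, 1.04 for Thy1, 0.92 for Krt19, 0.58 for Atf6 and 0.49 for Hspb7, and -1.36 for Cygb and -0.61 for Aldh1a2. From 3 to 18 months Cygb became more positive (1.49), and Upk1b (-1.39), Krt19 (-1.01), Hspb7 (-0.56) and Thy1 (-0.51) became less positive.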

How the results depend on the processing

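Of 175 genes named in the text with values as called in 3-month cells, 170 were called under all 12 alternatives. The other 5 and the 8 uncalled genes that some alternative called stand with their values in the results above. None of the 201 named genes counted above was called in the opposite direction. The count of calls in 3-month cells was 2435 (1319 higher, 1116 lower). It was 1550 (879 higher, 671 lower) in a fit on the 4 libraries alone, and 1471 to 3579 (853 to 1871 higher, 618 to 1708 lower) with 1 library left out. The cause was not tested. Within 1.5 times of the main count were DESeq2 1.42.0 (2196), RLE scaling (2437), column sums as library sizes (2435), at least 10 counts in every library of a group (2449), every gene with a count (2735) and exon-length correction (2690). Genes whose response differed between 3-month and neonatal cells numbered 290 to 1396 with 1 library left out and 809 with every gene kept, beside 536. Those that differed between 18-month and 3-month cells numbered 114 to 815, 539 and, after exon-length correction, 475, beside 284.

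Libraries of the same number did not deviate together (correlation 0.091 in 3-month, 0.003 in neonatal and -0.02 in 18-month cells), so the numbers give no pairing; a fit with a replicate block called 2583 genes. With 2 libraries a group, genes with few counts, such as the channels, have wide intervals, and differences near the floor were not detectable at this depth.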

Other observations

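Epithelial keratins and membrane proteins stood among the steepest changes in 3-month cells. Upk1b, a tetraspanin of urothelium and mesothelium, measured 30.9 and 36.6 CPM with MGT, against 0.958 and 0.732 CPM with LacZ (log2 change 5.32 ± 0.19; adjusted p = 2.2e-13, edgeR). Its change was -0.72 in neonatal cells, where it was called lower, and 3.92 in 18-month cells. Keratin 18 (Krt18), a filament protein of simple epithelia, had 123 counts over both MGT libraries against 3 over both LacZ libraries, a ratio of 44.8 (95% interval 15 to 220), and keratin 19 (Krt19) measured 17 and 17.2 CPM with MGT, against 3.7 and 4.62 CPM with LacZ (2.03 ± 0.18). These 3 stand in a list of mesothelial and epicardial markers, of which 4 of 11 tested rose and 2 fell, beside 11% and 9.35% of all tested genes. The 2 that fell were Upk3b (-1.42) and Aldh1a2, an enzyme of retinoic acid synthesis that makes up most of the list's sum, with 301 and 325 CPM with MGT, against 471 and 493 CPM with LacZ (-0.62 ± 0.09). The list summed to 471 and 507 CPM with MGT, against 584 and 609 CPM with LacZ, and the part of such cells in these values was not tested. Thy1, a surface protein of many fibroblasts, rose, with 513 and 591 CPM with MGT, against 158 and 171 CPM with LacZ (1.75 ± 0.09), while cytoglobin (Cygb), an oxygen-binding protein of stellate cells and fibroblasts, fell, with 18.5 and 19 CPM with MGT, against 73.6 and 70.3 CPM with LacZ (-1.94 ± 0.13).

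Of 20 tested Hippo pathway members and YAP targets 9 rose and 3 fell, with a median log2 change of 0.29; the rises numbered 5 without MGT replicate 1 and 4 without MGT replicate 2. Of 10 tested Hedgehog genes none rose and 4 fell; without MGT replicate 1 the falls numbered 1, and without LacZ replicate 1 there was 1 rise. Gas1, a Hedgehog co-receptor, measured 9.67 and 10.3 CPM with MGT, against 27.9 and 36.8 CPM with LacZ (-1.70 ± 0.24). Of 16 tested Notch genes 2 rose and 2 fell, and the ligand Jag1 measured 34.8 and 30.2 CPM with MGT, against 57.2 and 54.1 CPM with LacZ (-0.77 ± 0.12); without 1 library at a time, 1 to 3 rose and 1 to 4 fell. Small heat shock proteins of muscle rose: Hspb7 measured 156 and 161 CPM with MGT, against 45.9 and 43.6 CPM with LacZ (1.83 ± 0.09) and Cryab 689 and 735 CPM with MGT, against 250 and 303 CPM with LacZ (1.36 ± 0.09). In the list of heat shock proteins and muscle chaperones they belong to, 6 of 24 rose and 1 fell, with 3 rises and no fall without MGT replicate 2, no fall without LacZ replicate 2 or MGT replicate 1, and 2 falls without LacZ replicate 1. Of 29 tested genes of the unfolded protein and integrated stress response 4 rose and 4 fell. None fell without LacZ replicate 2 or either MGT replicate, 9 fell without LacZ replicate 1, and 2 rose without MGT replicate 2. The sensor Atf6 was among the rises, with 125 and 118 CPM with MGT, against 72.8 and 65.5 CPM with LacZ (0.82 ± 0.08).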
